A study of Mus musculus with 94 samples.

Results

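Tubular segments of vehicle-treated kidneys were compared between days 14 and 7 after unilateral ischemia-reperfusion injury (IRI), the interval in which an acutely injured kidney either repairs or moves toward chronic disease. The segments were chosen by their labels, which name the epithelial stain PanCK and the group codes I14V or I7V, and they numbered 14 of 94 in the series. The day 7 group had 4 segments in the cortex and 2 in the medulla, and the day 14 group had 4 in each region, so the regions were compared apart. All mice were C57BL/6 males. The vehicle was dimethyl sulfoxide and was first given before the left renal pedicle was clamped. The other groups used here were vehicle-treated mice on day 1, mice given entospletinib, an inhibitor of the kinase SYK, and euthanized on days 1, 7, and 14 after the same injury, and uninjured control kidneys. The labels describe the controls as contralateral kidneys and the methods of the study also allow kidneys of healthy mice, and these sources also differ on how long before IRI treatment began. The labels give no age and name no engineered allele. Each group had 2 tissue sections, told apart by the prefix of the label and called section 1 and section 2 here.

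Tubular epithelium is the part of the kidney most exposed to ischemia, because the outer medulla is poorly oxygenated and its proximal tubules depend on oxidative metabolism. Surviving tubular cells lose their mature features, divide, and normally regain them. Where repair fails, tubular cells keep an injured, inflammatory, and profibrotic program, macrophages persist beside them, and fibrosis follows.

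In digital spatial profiling, probes hybridized to the section carry barcodes that ultraviolet light releases from a chosen area, and sequencing counts the released molecules by their unique molecular identifiers (UMIs). PanCK and CD10 staining outlined the tubular segments, and IBA1 staining outlined macrophage segments of the same regions. The 14 segments held 588814 to 6418303 counts over 20175 probes, and the medullary segment with 588814 counts, in section 1 of day 14, was the shallowest. Probes carry identifiers that no file used here links to gene names, so the epithelial identity of the segments could not be checked against marker genes, and 4 probes are named below by identifier. A segment is a small area rather than a single cell type. Fewer cells of a type and less RNA per cell cannot be told apart in it. Segments of the same group and prefix were taken to share a section and an animal, so counts were summed per section and region (n = 2 sections per group). A probe was called changed at an Benjamini-Hochberg adjusted p under 0.05 in the quasi-likelihood test of edgeR and a fold above 2.

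In the medulla, 220 probes rose and 13 fell from day 7 to day 14 in vehicle-treated kidneys, which was 1.09% and 0.0644% of the 20175 probes tested. The median fold of the rising probes was 2.86. Of these, 123 rose up to 3-fold, 55 rose between 3- and 4-fold, and 42 rose more than 4-fold, up to 13.7-fold. The largest fall was 5.35-fold. All 220 rising probes were higher in section 1 of day 14 than in section 1 of day 7 and likewise in section 2, with median log2 changes of 1.35 and 1.77. The log2 changes of the rising probes began at 1.00, and the largest increase that passed the adjusted p but not the fold was 0.98. A further 153 probes were more than 2-fold higher and 212 more than 2-fold lower without passing the adjusted p. The number called depended on single sections. It was 29 (28 higher) without section 2 of day 7, 104 (102 higher) without section 1 of day 14, 154 (all higher) without section 2 of day 14, and 247 (241 higher) without section 1 of day 7.

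The rising probes made up a small and variable part of each segment's counts. On day 7 they held 0.982% of the counts of the medullary segment of section 1 and 0.603% of that of section 2. On day 14 they held 1.34% and 3.54% in the 2 segments of section 1, and 2.16% and 3.45% in those of section 2. All 4 day 14 segments thus lay above both day 7 segments, and the shallowest segment was the lowest of the 4. Probe by probe, 165 of the 220 (75%) were higher in every day 14 segment than in either day 7 segment, whereas 6.43% of all probes were. Since the day 14 samples chose these probes, the shares describe them and test nothing. Segments of the same section differed widely. The median absolute log2 difference of the rising probes was 1.20 between both day 14 segments of section 1 and 0.60 between those of section 2, against 0.31 and 0.20 over all probes. Without the shallowest segment, 246 probes were called higher, among them all 220, and 23 lower.

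**Figure D1:**
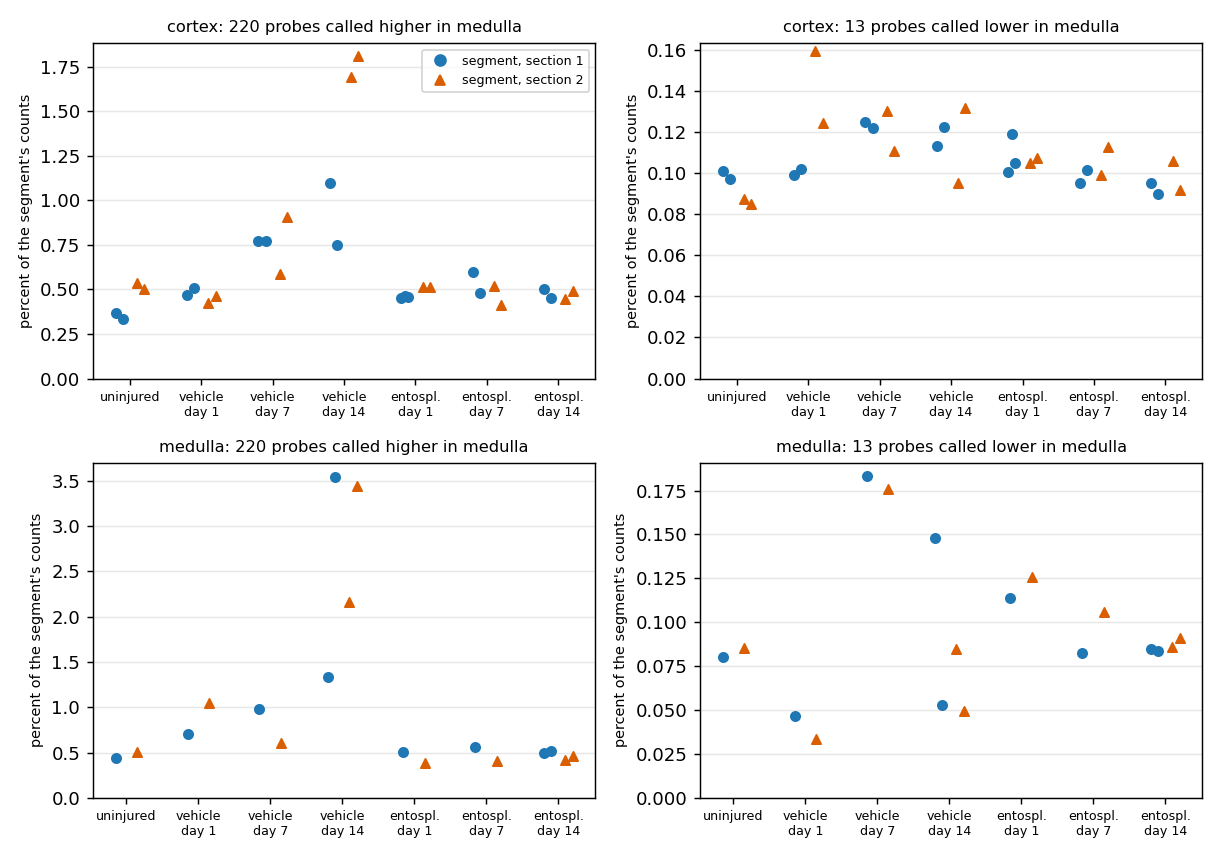
Percent of each tubular segment's counts held by the 220 probes that rose (left) and the 13 that fell (right) in the medulla between vehicle days 7 and 14, in cortex (top) and medulla (bottom). Each point is a segment, circles for section 1 and triangles for section 2, and 1 segment under 100000 counts is left out. In the medulla the 4 vehicle day 14 segments hold 1.34% to 3.54% in rising probes, above the 0.60% to 0.98% of day 7.

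RTS0070973 was the only probe called in both regions. In medullary segments its level was 23.6 and 28.8 CPM (counts relative to the library size, scaled by the upper quartile) on day 7, and 128 and 80.6 in section 1 and 126 and 89 in section 2 on day 14. In cortical segments it was 25.8 and 27.8 in section 1 and 22.7 and 20.2 in section 2 on day 7, and 103, 39.2, 81.9, and 85.1 on day 14 in the same order of sections. No day 14 segment overlapped a day 7 segment in either region, and the lowest day 14 value belonged to a cortical segment of section 1. Its log2 change by edgeR's quasi-likelihood test was 1.85 ± 0.24 (SE) in the medulla, adjusted p = 0.00103, and 1.66 ± 0.20 in the cortex, adjusted p = 0.0356. In the cortex it passed only with all sections or without section 1 of day 14, and its adjusted p was 0.290 without section 1 of day 7, 0.321 without section 2 of day 7, and 0.0929 without section 2 of day 14 by edgeR. The probe was at 16.0 to 25.3 CPM in the medullary segments of the control, vehicle day 1, and entospletinib groups.

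RTS0070408 ranked next by the larger adjusted p of its 2 regions among probes higher in both. Its medullary level was 39.3 and 33.5 CPM on day 7 against 150 and 254 in section 1 and 198 and 242 in section 2 on day 14, from 98 to 1763 counts per segment. The log2 change was 2.68 ± 0.38, with an adjusted p of 0.00205 by edgeR, or 0.0935 without section 2 of day 7. Its cortical level was 24.7 to 33.5 CPM in the 4 day 7 segments and 43.6 to 119 in the 4 day 14 segments, which did not overlap, but the cortical change of 1.52 ± 0.23 did not pass the test (adjusted p = 0.193 by edgeR). The medullary level had also differed early, with 46.3 and 152 CPM in the vehicle day 1 segments, and the change from day 1 to day 7 was -1.43 with an adjusted p of 0.0805 by edgeR.

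The 13 falling probes held their highest share of medullary counts on day 7. The fall to day 14 had chosen these probes, so a high share on day 7 was favored in advance. They held 0.183% and 0.176% of the counts in the day 7 medullary segments and 0.148%, 0.0527%, 0.0847%, and 0.0497% in those of day 14, and the highest of these again came from the shallowest segment. Control medullary segments held 0.0801% and 0.0853%, and vehicle day 1 segments held 0.0463% and 0.0338%. By the test against day 1, which shares the day 7 sums, 8 of 13 were called higher on day 7 (61.5%, against 0.585% of all probes). Against control, which also shares sums, 3 of 13 were called higher and 1 lower on day 7 (against 1.23% and 0.486% of all probes), whereas on day 14 there were 2 and 6, against 4.28% and 3.78% of all probes. Their median log2 value against control was 0.72 on day 7 and -1.06 on day 14.

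The 2 named probes with lower values on day 14 in both regions were not called in either, and they were taken from a tie in adjusted p by the size of their change. RTS0081140 was at 108 and 200 CPM in the medulla on day 7 and at 94.6, 42.5, 43.3, and 24.0 on day 14, without overlap. Its log2 change of -1.96 ± 0.58 had an adjusted p of 0.213 in the medulla and that of -0.999 ± 0.179 one of 0.275 in the cortex by edgeR, where 4 day 7 segments at 63.3 to 97.4 CPM lay above 4 day 14 segments at 20.1 to 59.0. Control segments of both regions lay at 16.1 to 19.2 CPM. Of all probes, 10.9% in the medulla and 11.6% in the cortex were lower in every day 14 segment than in every day 7 segment. RTS0064868, a probe of low level, was at 15.7 and 17.1 CPM in the medulla on day 7 and at 12.2, 8.26, 10.2, and 6.32 on day 14, from 8 to 49 counts in a day 14 segment. Its medullary change of -0.997 ± 0.213 passed the adjusted p (0.0310 by edgeR) and just missed the fold, but it did not pass when any 1 of the 4 sections was left out. Its cortical change was -0.84 ± 0.31 with an adjusted p of 0.275 by edgeR.

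**Figure D2:**
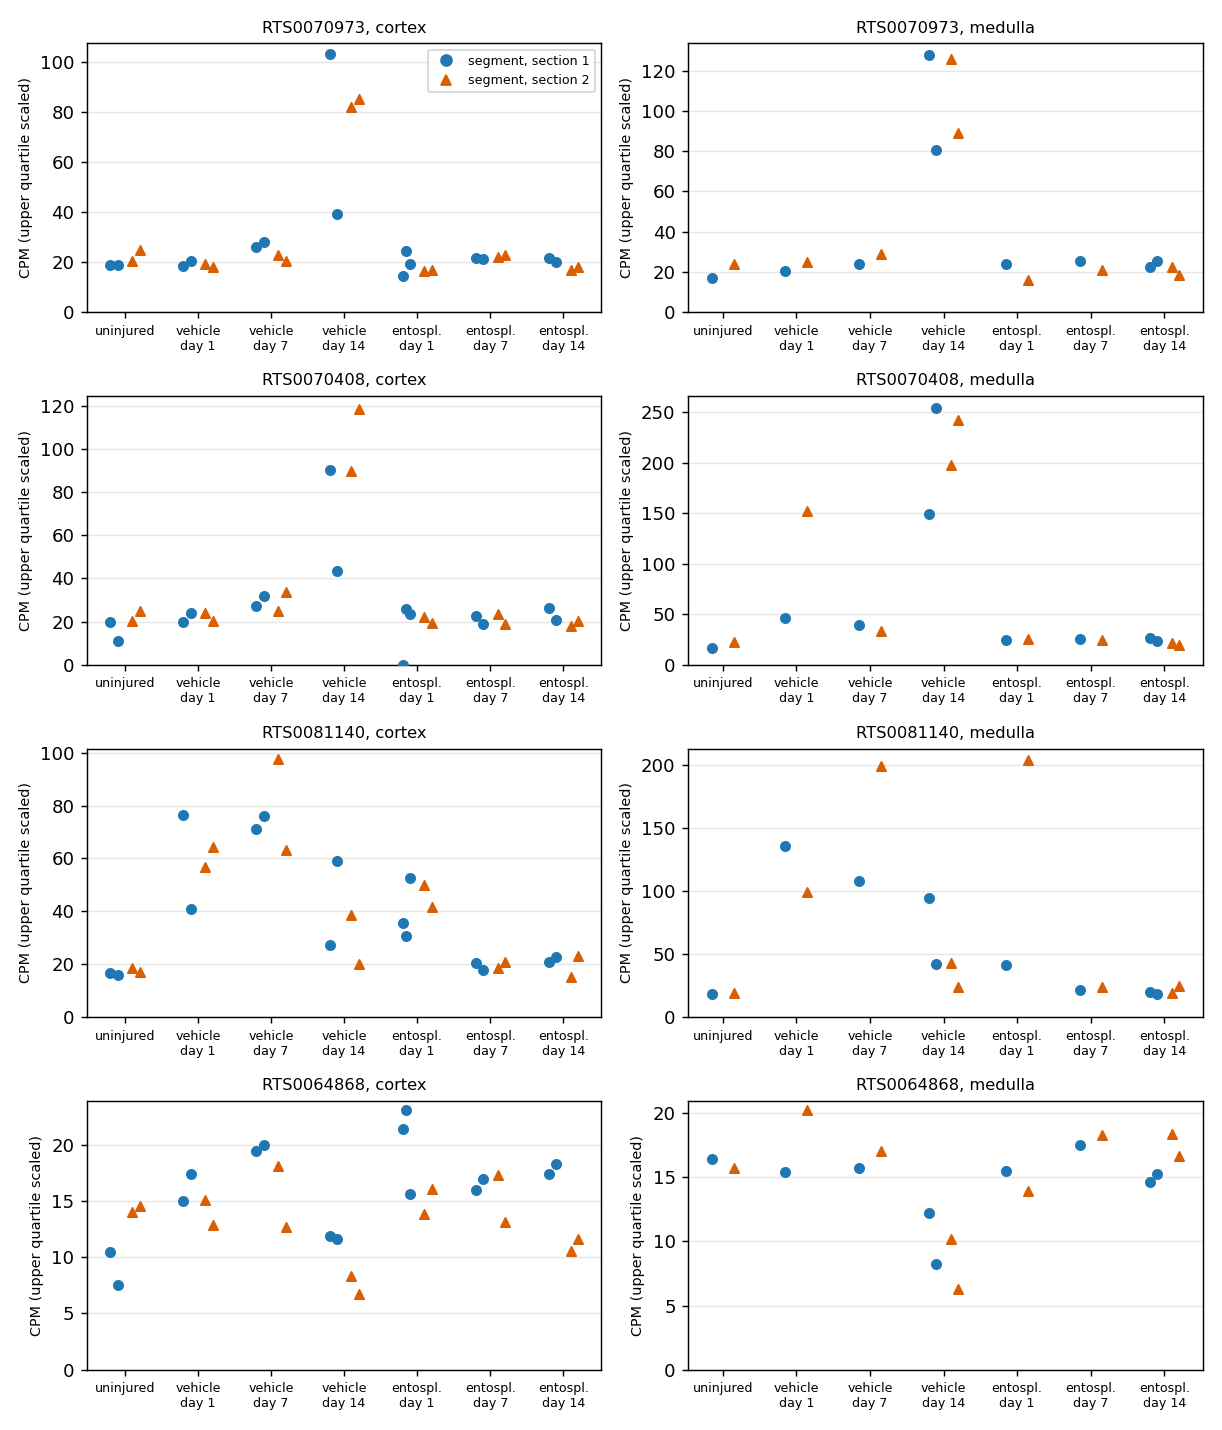
Level of the 4 named probes in each tubular segment, in CPM scaled by the upper quartile, for cortex (left) and medulla (right) in 7 groups. Each point is a segment, circles for section 1 and triangles for section 2. RTS0070973 lies at 80.6 to 128 CPM in the vehicle day 14 medulla and at 28.8 or less in all other medullary segments.

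In the cortex, RTS0070973 was the 1 probe called, or 0.00496% of those tested, and none was called lower, although 3569 probes (17.7%) had an unadjusted p under 0.05, 614 of them higher and 2955 lower. The sections of day 14 differed most here. Between them 11.5% of all probes differed more than 2-fold, and between the day 7 sections 0.689% did. Without section 1 of day 14, 255 probes were called higher and 3947 lower in the cortex, and without either day 7 section none was called by edgeR, with 1021 and 3102 probes at an unadjusted p under 0.05. Without section 2 of day 14 a single probe was called, a different one. DESeq2 called 106 probes higher on the same sums and 183 with segments as replicates, none of them lower.

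The cortical change moved with the level of the probe. With upper quartile scaling the median log2 change of all cortical probes was -0.23, whereas with TMM scaling it was 0.00. The medians by level that follow are given relative to that shift, and all other changes are as fitted with upper quartile scaling. Probes were split into 4 equal bins by mean level. The median change minus that of all probes was -0.22 in the lowest bin and 0.28 in the highest. In the medulla the 4 bins lay between -0.06 and 0.07 of the median of all probes. Relative to the total of each segment alone, without upper quartile scaling, the median probe stood at 23.9 to 30.8 CPM in day 7 cortical segments and at 18.6 to 25.9 on day 14, and at 21.5 to 27.1 and 22.5 to 28.1 in the medulla. The part of these shifts in the cortical calls was not tested.

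The probes that rose in the medulla had smaller changes in the cortex of the same sections. The medullary change had chosen these probes, so a smaller cortical change was favored in advance. Their median cortical log2 change was 0.40, with 195 of 220 above 0 (209 with TMM scaling). Except for RTS0070973, none of the 220 was called in the cortex. The rising probes held 0.586% to 0.905% of the counts in the 4 cortical segments of day 7 and 0.748% to 1.81% in those of day 14, which overlapped, and 18 of 220 (8.18%) were higher in every day 14 segment than in every day 7 segment, against 4.07% of all probes. The day 14 segments of section 2, at 1.69% and 1.81%, lay above those of section 1, at 1.1% and 0.748%. The falling probes had a median cortical log2 change of -0.19, or 0.04 with TMM scaling, and none was called.

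**Figure D3:**
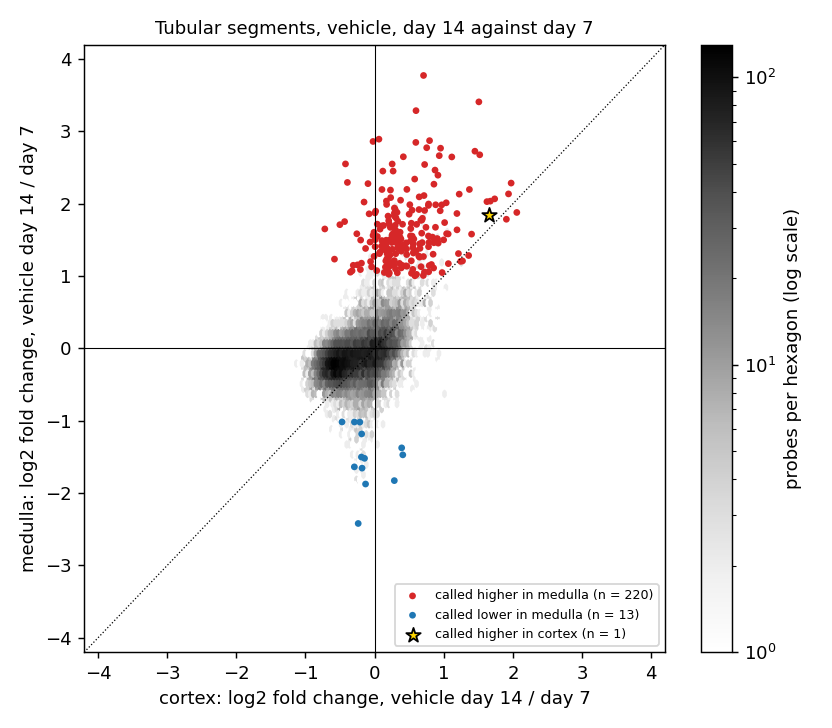
Log2 fold change of each probe from vehicle day 7 to day 14 in the cortex (horizontal) and in the medulla (vertical). Grey hexagons count all probes on a log scale, red and blue points are the 220 and 13 probes called in the medulla, the star is the 1 probe called in the cortex, and the dotted line marks equal change. Most red points lie above the line, with a median of 1.52 in the medulla and 0.40 in the cortex. Their choice by the medullary change favored this position.

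When the difference between the regions was tested within sections, the change was larger in the medulla for 78 probes and smaller for 7, which was 0.387% and 0.0347% of all probes at an adjusted p under 0.05 by edgeR. With DESeq2 on the same sums the split was 68 and 29. Of the 220 rising probes, 58 were among the 78. The test includes the medullary change that chose the 220, so this overlap was favored in advance. The median change of the 78 probes in the medulla was 1.56 and in the cortex -0.04, and that of the 7 was -1.42 and 0.39. These medians share the data that called the probes. For RTS0070973 the difference was 0.19 ± 0.22 with an adjusted p of 0.674 by edgeR. RTS0070408 differed by 1.20 ± 0.46 without passing the test (adjusted p = 0.337 by edgeR). The total of 85 probes became 12 without section 2 of day 7, 48 without section 1 of day 14, and 164 without section 2 of day 14.

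Entospletinib-treated kidneys, which came from other mice, were compared over the same interval. From day 7 to day 14 edgeR called no probe in their tubular segments in either region, and 48 cortical and 90 medullary probes had an unadjusted p under 0.05. These were 0.238% and 0.446% of the probes, below the share that this threshold gives without any change. The spread was estimated with all groups of the fit, and the absence of calls does not show that levels were stable. The 220 rising probes had a median log2 change of -0.02 in the entospletinib medulla, with 101 above 0 and 119 below (120 above 0 with TMM scaling), and they held 0.401% to 0.561% of the counts on day 7 and 0.415% to 0.512% on day 14. The 13 falling probes had a median of -0.07. The change in vehicle-treated medulla exceeded that in entospletinib-treated medulla for 24 probes (0.119%) and was below it for none, and all 24 belonged to the 220. With TMM scaling 150 probes exceeded it and 1 was below. The test includes the vehicle change that chose the 220, so the overlap of the 24 with them was favored in advance. RTS0070973 was among the 24, with a difference of 1.89 ± 0.33 and an adjusted p of 0.0417 by edgeR. For RTS0070408 the difference was 2.83 ± 0.52 with an adjusted p of 0.0543 by edgeR. Only vehicle sections were left out in what follows. The 24 became 62 without section 1 of day 7, 0 without section 2 of day 7, and 6 without section 1 of day 14, by edgeR, with 1346, 481, and 970 probes at an unadjusted p under 0.05. In the cortex no probe passed this test by edgeR (3 did by DESeq2), 786 had an unadjusted p under 0.05, and 90 passed without section 1 of day 14.

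The rising probes were placed on the course from uninjured kidney by tests that share sums with the day 14 to day 7 test. Against control, 19 of the 220 were called higher and 1 lower in the medulla on day 7 (8.64% and 0.455%, against 1.23% and 0.486% of all probes), and 206 higher on day 14 (93.6%, against 4.28%). Their median log2 value against control was 0.32 on day 7 and 1.94 on day 14. Between days 1 and 7, 15 fell and 4 rose (6.82% and 1.82%, against 0.739% and 0.585% of all probes). Single medullary segments on day 7 had median log2 ratios of the 220 to the control mean of 0.49 and 0.07, and those of day 14 had 0.91, 2.01, 1.44, and 2.04. On day 14 between 93 and 214 of the 220 were more than 2-fold above control in a segment, and on day 7 there were 55 and 19, whereas 2.77% to 5.32% of all probes were on day 14 and 2.2% and 2.42% on day 7. In the cortex, the median against control was 0.49 on day 7, with none called by edgeR (0.104% of all probes were called higher, 0% lower), and 0.95 on day 14, with 96 called higher and none lower (43.6%, against 2.33% higher and 0.62% lower).

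Probes of macrophage segments moved with this result. In the 10 sections of the other 5 groups, 320 of 20147 probes (1.59%) were higher and 176 (0.874%) lower in the IBA1 segments of the medulla than in the tubular segments by edgeR with the section as a block. The medullary IBA1 sums of these sections were shallow, with 41102 to 372276 counts, against 1235205 to 14254882 in the tubular sums. Of the 220 rising probes, 87 (39.5%) were among the 320 and none among the 176. From day 7 to day 14, 87 of the 320 (27.2%, against 1.09% of all probes) rose in vehicle tubular segments of the medulla and none fell, with a median log2 change of 0.96 over the 320. The other 133 rising probes were not in that list and had a median change of 1.49, against 1.67 for the 87. Of the 176, 2 fell (against 0.0644% of all probes) and none rose, with a median of -0.75. RTS0070408 was in the list of 320, and RTS0070973 was not, with a log2 difference of 0.30 between IBA1 and tubular segments (adjusted p = 0.480 by edgeR).

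The summed level of these probes differed between the days in single segments. The 320 held 2.70% and 1.67% of the counts of the day 7 medullary segments and 3.19%, 6.03%, 4.13%, and 6.02% on day 14, without overlap. They held 0.927% and 0.973% in control and 0.752% to 1.01% in the entospletinib segments of days 7 and 14, but 1.86% and 3.40% in the vehicle day 1 segments, which overlapped both later days. The control, day 1, and entospletinib sections had chosen the 320 for a lower level in tubular than in IBA1 segments. Their low shares were thus favored in advance and are no separate reference. The 176 held 2.19% and 4.25% on day 7 and 2.42%, 0.691%, 3.92%, and 1.32% on day 14, which overlapped. In the cortex 258 probes (1.28%) were higher and 25 (0.124%) lower in IBA1 segments, whose sums in the other sections held 43422 to 483692 counts. The 258 held 1.23% to 1.79% on day 7, 2.23% and 1.73% in section 1 of day 14, and 4.14% and 4.41% in section 2. Their median log2 change was 0.70 (0.97 with TMM scaling). Of the 258, 1 was called (0.388%, against 0.00496% of all probes), RTS0070973, the only cortical call. Their part in the change of the tubular segments was not tested.

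**Figure D4:**
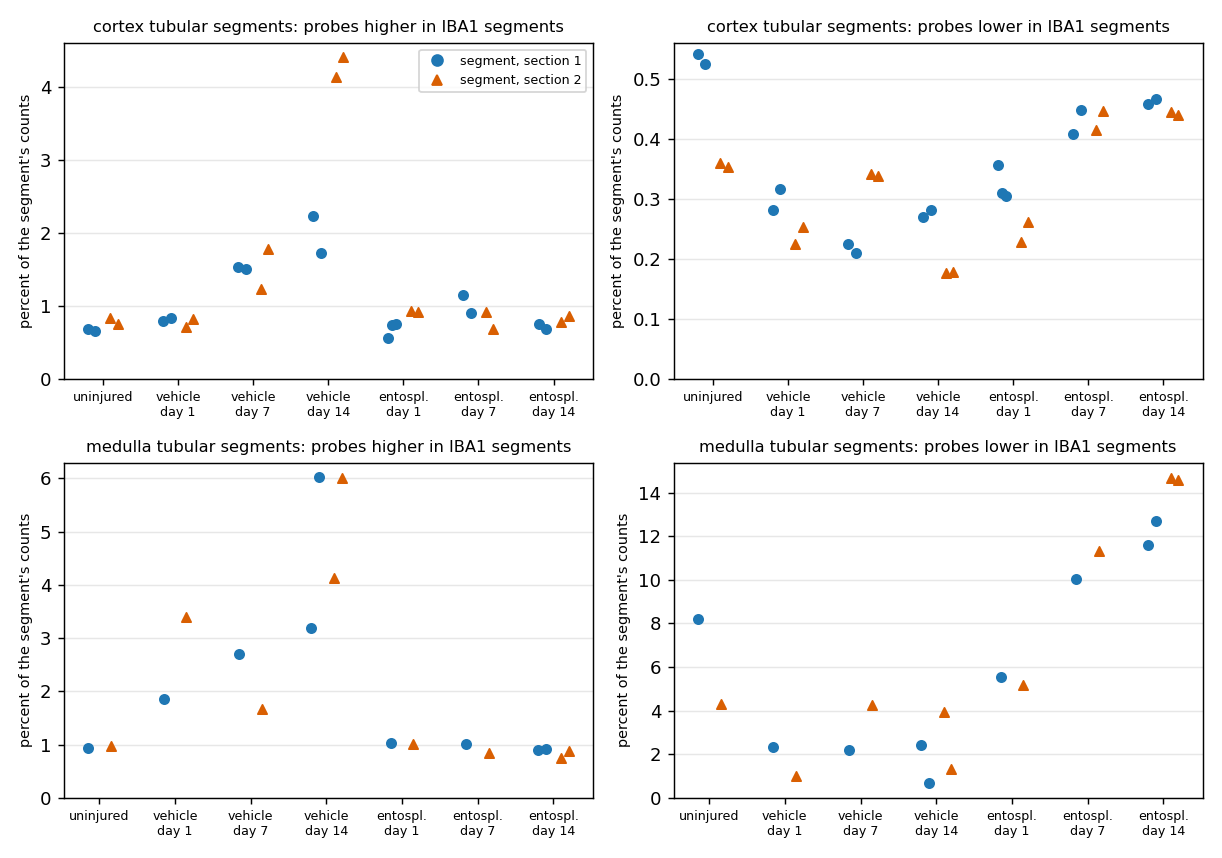
Percent of each tubular segment's counts held by probes that were higher (left) or lower (right) in IBA1 segments than in tubular segments of the 10 sections that are not vehicle day 7 or 14, for cortex (top) and medulla (bottom). Each point is a segment, circles for section 1 and triangles for section 2. In the vehicle medulla the higher probes hold 1.67% and 2.70% on day 7 and 3.19% to 6.03% on day 14.

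The IBA1 segments themselves were compared over the same interval. In vehicle-treated medulla 33 of 9439 probes tested rose and 19 fell from day 7 to day 14 in IBA1 segments, and in the cortex 1 of 13172 rose (0.00759%). Of the 220 probes, 195 could be tested in the medullary IBA1 segments, where 26 rose (13.3%, against 0.35% of all) and none fell, with a median log2 change of 0.77. Of the 13 falling probes, 9 could be tested there and 3 fell (0.201% of all fell). A probe could pass the count filter of the IBA1 segments through the day on which it was high alone, so these shares test neither list. RTS0070973 was at 44.7 and 47.7 CPM on day 7 and at 68.8, 103, 160, and 83.6 on day 14 in these segments, and rose by 1.16 ± 0.27 on the log2 scale, adjusted p = 0.0302 by edgeR. Both kinds of segment came from the same sections, so they do not stand for separate animals.

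The number of called probes depended on the test. In the medulla edgeR on summed counts called 233 probes, DESeq2 on the sums called 462, and limma-voom on segments with the section as a random effect called 7, all of which were among the 220 rising probes.

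**Figure D5:**
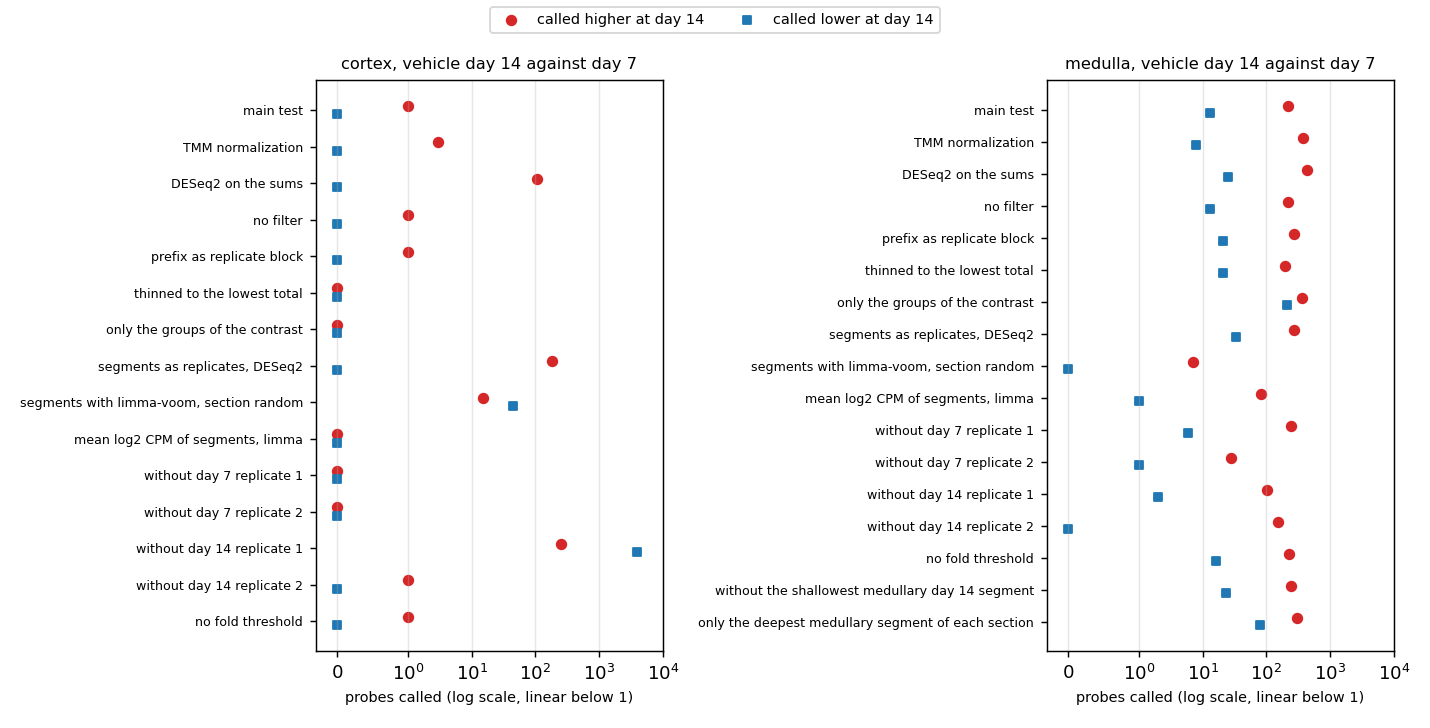
Number of probes called higher (red circles) and lower (blue squares) on day 14 than on day 7 in vehicle tubular segments under each setting, for cortex (left) and medulla (right), on a log scale that is linear below 1. In the medulla calls higher run from 7 to 437 and outnumber calls lower in every setting shown. In the cortex they run from 0 to 255, and 2 settings call more probes lower than higher.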

How the data were processed

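Digital spatial profiling counts were analyzed for 14 tubular segments (vehicle, days 7 and 14), with the other tubular and macrophage segments as reference. The authors deposited raw counts of UMIs per probe for each segment, produced by the GeoMx NGS Pipeline (version 3.1.1.5 in the file headers) by matching reads to probe barcodes and collapsing UMIs, before background evaluation, aggregation of probes per gene, filtering, and normalization. The submitters' processing notes name R 4.3.1 and the build mm10. Probes absent from a file were set to a count of 0. The study removed 2 segments as outliers without naming them in the sources used here, so none was removed. The study tested segments as replicates with DESeq2, which is an alternative here.

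Counts were summed per section and region, because segments of a section were taken to share an animal. The design text gives 2 mice per condition, but the labels do not say that a prefix is a mouse, so p-values measure the spread between these sections. All 14 sums of a region (7 groups) entered each fit. Probes were filtered with filterByExpr (minimum count 10, minimum total 15), which kept all 20175 in tubular sums, scaled by their upper quartile, and compared with edgeR 4.0.16 (glmQLFit, robust, glmQLFTest) in R 4.3.3 with Benjamini-Hochberg adjustment. Calls needed an adjusted p under 0.05 with a log2 fold change beyond 1 in size, and differences of changes needed the adjusted p alone. Standard errors were taken as the size of the log2 fold change over the square root of F. The difference between regions was tested with the section as a block. Levels per segment are CPM scaled by the upper quartile, ratios to control used a pseudocount of 1 CPM, and log2 CPM of sums a prior count of 2. Shares of counts carry counting error as well, and the shallowest segment held 588814 counts.

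Alternatives were TMM, DESeq2 1.42.0, no filter, only the groups of a contrast, the label prefix as a block, segments as replicates (DESeq2, or limma 3.58.1 with voom), mean log2 CPM of segments, thinned sums, no fold threshold, and leaving out each section. Leaving out single medullary segments, the comparison of IBA1 with tubular segments, and the summaries by level were added after the data were seen. On simulated counts edgeR and limma on log2 CPM of sums stayed under the limit set for false calls, whereas DESeq2 on the sums exceeded it. The edgeR difference between treatments in the medulla met the limit only through its allowance for few calls. It recovered a minority of the probes changed in the simulation. The limma-voom fit of segments was not simulated. Named probes are, for each direction, the 2 with the smallest value of the larger adjusted p of both regions among probes with that sign in both, with ties broken by the larger of the smaller absolute log2 fold change. The segments, lists, and thresholds were chosen with earlier results of these data known.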

Additional observations from a re-analysis of the deposited data

Results flagged for a closer look

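In the vehicle groups of 4 tubular segments on days 7 and 14, 36 sets of values were examined for a segment far from the others, which chance gives in about 1 in 20. One was found, the total count of a cortical segment in section 1 of vehicle day 14, with 2355614 counts against 3079326 to 3218840 in the other 3. The same segment had the highest level of RTS0070973 among them, 103 CPM.

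The change from day 7 to day 14 differed between medulla and cortex for 85 probes, and between vehicle- and entospletinib-treated medulla for 24 probes, both by edgeR's test of the difference itself. RTS0070973 was one of the 24, with a log2 difference of 1.89 between the treatments.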

How the results depend on the processing

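Of the counts of called probes under the alternatives, 29 stayed within 1.5 times the reported count, 40 moved further, and 3 had their majority in the other direction. The setting without a filter could not differ, because the filter had kept all 20175 probes. It is counted among those that stayed and among the alternative values of the named probes. For the 233 probes of the medulla, TMM gave 387, DESeq2 on the sums 462, only the 2 groups 569, the deepest segment of each section alone 381, mean log2 CPM 84, and limma-voom 7. Leaving out a section gave 29 to 247. For the 1 cortical probe, TMM gave 3, DESeq2 106, segments with DESeq2 183, and thinned sums, only the 2 groups, and mean log2 CPM gave 0 by edgeR or limma, with 3385, 899, and 2551 probes at an unadjusted p under 0.05. Limma-voom gave 59, of which 44 were lower, and leaving out a section gave 0 to 4202, of which 3947 were lower without section 1 of day 14. For the 85 probes that differed between regions, thinned sums gave 30, only the 2 groups 42, mean log2 CPM 0 (1823 at an unadjusted p under 0.05), and segments with DESeq2 1131, of which 1056 were lower in the medulla. Leaving out a section gave 12 to 164. For the difference between treatments in the cortex, TMM gave 1, DESeq2 3, segments with DESeq2 28, and leaving out a section 0 to 90. For the 24 medullary probes, TMM gave 151, DESeq2 366, segments with DESeq2 350, only the 4 groups 73, the deepest segments 79, limma-voom and mean log2 CPM 0 (647 and 644 at an unadjusted p under 0.05), and leaving out a section 0 to 62. The cause of these shifts was not tested. With the prefix as a replicate block, the medulla gave 294 calls, the cortex 1, and the treatment differences 81 and 0, and the region difference without its section block gave 24. The deviations of same-prefix sums of days 7 and 14 correlated with r = 0.49 in the cortex and 0.45 in the medulla, over pairs of groups that ranged from -0.52 to 0.65, and the labels do not say that a prefix pairs animals. The named probes kept their direction in all of their alternative values, of which 14 lost the adjusted p, 10 gained it, and 87 did neither. These data had chosen the named probes for the same sign in both regions, and the alternatives reuse the same counts. RTS0070973 passed in the medulla in 15 of 15 and in the cortex in 7 of 13, both counting the setting without a filter. Sections left out were always vehicle sections of day 7 or 14, also for the difference between treatments. With 1 section left out the remaining sum is assumed to vary like the other groups. Depth limits the shallowest segment most, where RTS0064868 had 8 counts.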
